A study of Mus musculus with 6 samples.

Results

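The 36 genes described here encode the core machinery of autophagy and a small set of lysosomal proteins: cargo receptors, the Atg8 proteins, the kinase complexes that start an autophagosome, the enzymes that attach Atg8 to lipid, the transcription factor TFEB, and lysosomal membrane proteins and cathepsins. They were taken by symbol from a table of 37477 distinct Ensembl genes, and all 36 were found there, each under 1 identifier. The counts come from RNA sequencing of mouse muscle labelled quadriceps, the large muscle at the front of the thigh, of C57BL/6 mice aged 20 weeks. Wild-type mice (WT, 3 libraries) were set against mice in which estrogen receptor alpha was knocked out in muscle only (muscle-specific estrogen receptor alpha -/-, named MERKO in the design text and KO here, 3 libraries). The promoter that drives the deletion, the deleted exons, the sex of the mice and whether each library is 1 animal were not given in the sources used here, so p-values measure only the spread between these libraries.

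Autophagy encloses cytoplasm in a double membrane that fuses with the lysosome, where acid hydrolases break the contents down. The ULK1 kinase complex starts the process, the class III PI3-kinase complex around Beclin 1 marks the membrane, 2 ubiquitin-like conjugation systems attach Atg8 proteins to it, and receptors tie ubiquitinated cargo to Atg8. In muscle the pathway removes damaged mitochondria and protein aggregates and is raised by fasting, exercise and denervation. Much of its control lies in phosphorylation and lipidation of the proteins, which RNA counts do not measure.

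Library totals ran from 7388365 to 8560244 counts. Esr1, the targeted gene, was counted 50, 41 and 44 times in the 3 WT libraries and 22, 16 and 16 times in the 3 KO libraries, a log2 difference of -1.45 (adjusted p = 0.145), so that its groups were apart but the difference did not pass over all genes. With no filter beyond 1 read it passed in edgeR (adjusted p = 0.000142), and in the authors' deposited table, where 5 genes passed, its adjusted p was 0.000152. The 10 defining markers of skeletal muscle fibres were all present, and the slow myosin gene Myh7 held 57.9% to 62.5% of what the 4 adult myosin heavy chain genes summed to in each library, and the fast Myh4 0.525% to 1.60%. Mouse quadriceps is known as a mainly fast muscle, so this mainly slow mix, seen in WT and KO alike, goes against the tissue label. The tissue is named here only as labelled. The groups were not equal in this mix. Myh4 held 1.155%, 0.525% and 0.853% in WT and 1.37%, 1.20% and 1.60% in KO. Myh1 held 10.3%, 9.08% and 8.74% in WT and 11.7%, 12.4% and 12.8% in KO. For Myh4 and Myh1 every KO share lay above every WT share, while the shares of Myh7 and Myh2 overlapped. Whether this bears on the members' values was not tested. Markers of macrophages, whose lysosomes are abundant, were low: 15 of 15 were detected, and they summed to 128 to 172 CPM (counts scaled to library size) in WT and 161 to 176 in KO. The 2 ranges overlapped. Of the 12 macrophage markers tested, 9 were higher and 3 lower in KO, and 0 passed. The part of macrophages in the lysosomal values below was not tested. In such bulk samples, fewer cells of a type and less RNA per cell cannot be told apart.

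None of the 36 autophagy and lysosome genes passed the test between KO and WT. All 36 passed the filter on low counts. In edgeR's quasi-likelihood test over the 13848 genes tested, 0 of the 36 passed an adjusted p of 0.05 (lowest adjusted p = 0.989), as did 0 of all genes (0%). At an unadjusted p under 0.05 there was 1 higher member, Map1lc3a, and 0 lower, where 1.99% of all genes were higher and 2.27% lower at that level. Of the 36, 18 had a positive and 18 a negative log2 difference, KO minus WT. Their median was 0.001, beside -0.002 over all genes tested, and the differences ran from -0.26 (Atg14) to 0.20 (Map1lc3a).

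Groups did not overlap for 4 members: all KO libraries lay above all WT libraries for Map1lc3a alone, and below for Gabarap, Rb1cc1 and Ambra1. Over all genes tested 4.96% lay apart as higher and 5.45% as lower. The members' share, 11.1%, stood near the 10.4% of both directions together. The plot of the members by library shows how closely the 6 libraries lay.

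**Figure D1:**
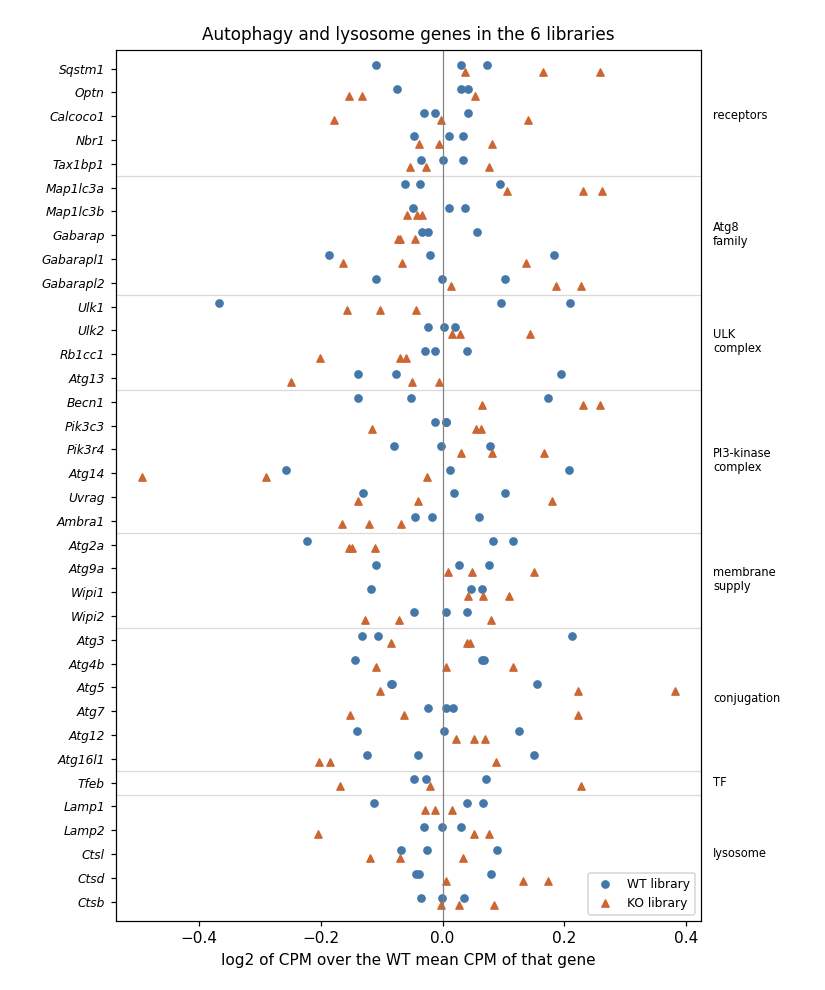
Each point is 1 library: the horizontal axis is log2 of its CPM over the mean WT CPM of the same gene, with WT as circles and KO as triangles, and genes are grouped by role. Of 36 genes only Map1lc3a has every KO point to the right of every WT point, and Gabarap, Rb1cc1 and Ambra1 have every KO point to the left.

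The intervals around these differences were narrow. For 35 of 36 members the 95% interval of the log2 difference lay within a 1.5-fold change either way, and for all 36 within 2-fold. The exception to the first bound was Atg14, whose interval reached -0.62. Over all genes tested the interval lay within 1.5-fold for 9065 of 13848, and over the 8295 genes in the members' range of mean abundance (7.79 to 432 CPM) for 7636. The median half-width was 0.197 log2 units among the members and 0.245 among those 8295 genes. The lowest member count in any library was 57, and 28 of 36 members had at least 100 counts in every library.

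**Figure D2:**
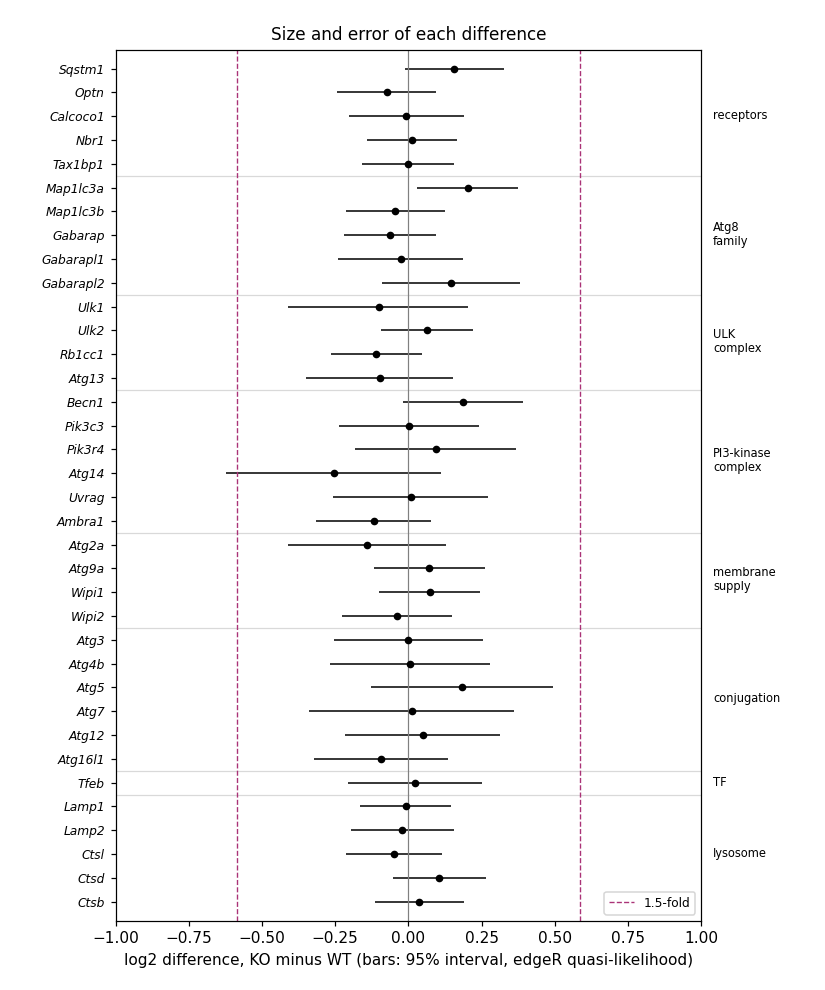
Points are log2 differences, KO minus WT, and bars their 95% intervals from edgeR's quasi-likelihood fit with 3 libraries per group; dashed lines mark a 1.5-fold change. The interval of Map1lc3a, from 0.03 to 0.37, is the one that does not cross 0, and only that of Atg14 crosses a dashed line.

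The receptors that tie cargo to the autophagosome were led by Sqstm1, which encodes p62. Sqstm1 (ENSMUSG00000015837, chromosome 11, 50199366 to 50210827 in mm10) was at 384, 338 and 373 CPM in WT replicates 1, 2 and 3 and at 436.5, 409 and 374.5 in KO replicates 1, 2 and 3. KO replicates 1 and 2 stood above every WT library, and KO replicate 3 lay inside the WT range. The log2 difference was 0.16 ± 0.08 (SE), with a 95% interval from -0.01 to 0.32 (unadjusted p = 0.0673, adjusted p = 0.989). The optineurin gene Optn, whose product brings autophagy to ubiquitinated mitochondria, was at 118 ± 5.28 CPM in WT and 112 ± 9.03 in KO (SD, n = 3 each). Nbr1, a receptor built like p62, was at 153 ± 4.39 and 154 ± 6.66 CPM, and Tax1bp1, which binds ubiquitinated cargo, at 109 ± 2.62 and 109 ± 5.22 CPM. Calcoco1, a receptor for endoplasmic reticulum, was at 47.0 ± 1.24 and 46.8 ± 5.13 CPM. Groups overlapped for all 5 receptors. The log2 differences of these other 4 ran from -0.07 to 0.01.

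The Atg8 proteins coat the autophagosome and bind the receptors, and Map1lc3a, which encodes LC3A, was the member with the lowest unadjusted p. Map1lc3a (ENSMUSG00000027602, chromosome 2, 155276297 to 155278073) was at 65.8, 72.1 and 64.7 CPM in WT and 80.9, 72.6 and 79.2 in KO, in the order of their replicates. The groups were apart by less than 1 CPM, with WT replicate 2 just under KO replicate 2. Its log2 difference was 0.20 ± 0.08 (SE), with a 95% interval from 0.03 to 0.37 (unadjusted p = 0.0248, adjusted p = 0.989). The p rose above 0.05, to at most 0.0889, in DESeq2 and on leaving out any 1 of WT replicates 1 and 3 and KO replicates 1 and 3. In the authors' deposited table it had a log2 fold change of 0.22 and a p-value of 0.046, the only member there under 0.05 (adjusted p = 1.0). With 1181 exonic bases Map1lc3a was the shortest member, and over all genes shorter ones tended to higher log2 differences (Spearman -0.186). The part of length in its value was not tested.

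Its relative Map1lc3b, which encodes the LC3B protein used to follow autophagy by immunoblot, had overlapping groups. Map1lc3b was at 54.1, 55.1 and 52.0 CPM in the WT libraries and 51.6, 52.2 and 52.5 CPM in the KO libraries. The 95% interval of its log2 difference ran from -0.21 to 0.12. Whether the differences of Map1lc3a and Map1lc3b are unequal was not tested.

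The GABARAP branch, which acts mainly late in autophagosome formation, held genes with higher levels per kb than Map1lc3b (7.04 CPM per kb over the 6 libraries), namely Gabarapl1 (103), Gabarap (44.2) and Gabarapl2 (8.92). With the longest transcript as length Gabarapl2 (12.4) lay just under Map1lc3b (12.8). Gabarapl1 was at 207, 184 and 238 CPM in WT and 230, 187 and 200 in KO. It was the most variable of the Atg8 genes, with a within-group coefficient of variation of 11.9%, against 2.23% for Map1lc3b. Its log2 difference was -0.03 ± 0.10 (SE). Gabarap was at 81.8, 86.6 and 81.3 CPM in WT and 79.3, 79.1 and 80.6 in KO. All KO values of Gabarap lay below all WT values, by under 1 CPM at the nearest, and its log2 difference of -0.06 had a 95% interval from -0.22 to 0.09. Gabarapl2 was at 19.7 ± 1.46 in WT and 21.8 ± 1.69 in KO (SD, n = 3 each).

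Per exonic length, Gabarapl1 made up 46.8% ± 4.25 of the Atg8 family's RNA in WT and 44.9% ± 2.21 in KO (SD, n = 3 each). Map1lc3a followed with 25.8% ± 2.39 and 28.9% ± 0.611. All 3 KO shares of Map1lc3a, 28.4%, 28.7% and 29.6%, stood above the 3 WT shares of 25.4%, 28.3% and 23.6%. KO replicate 1, at 28.38%, and WT replicate 2, at 28.34%, were nearly equal. These shares rest on the same counts as the CPM values above and are no second separation. Gabarap took 20.4% ± 1.40 and 19.0% ± 1.13. Gabarapl2 took 3.82% ± 0.397 in WT, and Map1lc3b took 3.22% ± 0.218. With the longest transcript in place of the union of exons, Map1lc3b took 4.96% in WT and Gabarap, at 23.5%, stood beside Map1lc3a, at 23.2%.

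The ULK complex starts autophagy through a kinase encoded by Ulk1 or Ulk2. Ulk1, whose product is phosphorylated by AMPK and mTORC1, was at 17.6, 11.8 and 16.2 CPM in WT and 13.6, 14.1 and 14.7 in KO. The KO libraries lay close together inside the wide WT range, and the 95% interval of the log2 difference ran from -0.41 to 0.20. Ulk2, its paralogue, was at 99.7 ± 1.54 CPM in WT and 104 ± 5.17 in KO (SD, n = 3 each). Rb1cc1, which encodes the scaffold FIP200, was at 162, 168 and 160 CPM in WT and 156, 157 and 142 in KO. Each KO value of Rb1cc1 was lower than each WT value; the log2 difference was -0.11 ± 0.07 (SE) (unadjusted p = 0.156, adjusted p = 0.989). Atg13, the adaptor that joins the kinase to FIP200, had a log2 difference of -0.10 and overlapping groups.

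The class III PI3-kinase complex makes the lipid signal on the new membrane. Its regulatory subunit gene Becn1, which encodes Beclin 1, was at 41.4, 51.4 and 44.0 CPM in WT and 54.5, 53.5 and 47.7 in KO. WT replicate 2 exceeded KO replicate 3, and the other KO libraries exceeded every WT library. The log2 difference was 0.19 ± 0.10 (SE), with a 95% interval from -0.02 to 0.39 (unadjusted p = 0.0698, adjusted p = 0.989). Exons of Cntd1, on the opposite strand, overlap 43.9% of the exonic bases of Becn1. The library kit did not mark strand, so the counts of Becn1 are uncertain. The same holds, with smaller overlaps, for Gabarapl1 (28.3%), Ctsl (26.8%), Uvrag (17.6%), Sqstm1 (17.3%), Ctsb (12.8%) and Lamp1 (9.3%). The overlap of Ctsl is with Gm47123 on the opposite strand and with Gm49230, a processed pseudogene on the same strand.

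The catalytic subunit gene Pik3c3 was at 17.4 ± 0.126 CPM in WT and 17.5 ± 1.20 in KO, and its partner Pik3r4 at 12.1 ± 0.658 and 12.9 ± 0.620 CPM (SD, n = 3 each). Atg14, which directs the complex to autophagosome formation, had 73, 82 and 64 counts in WT and 67, 57 and 77 counts in KO, in libraries of unequal size. Its log2 difference of -0.26 ± 0.17 (SE) was the lowest of the 36 and had the widest interval, from -0.62 to 0.11. It moved to -0.14 without WT replicate 2, where Ulk1 (-0.26) and Atg2a (-0.24) were lower, to -0.15 without KO replicate 2, and to -0.38 without KO replicate 3. Uvrag, which takes the place of Atg14 in a complex of endosomes and late autophagosomes, had a log2 difference of 0.01. Ambra1, a Beclin 1 partner, was at 30.5, 29.9 and 32.2 CPM in WT and 28.4, 27.6 and 29.5 in KO. Its groups did not overlap, with WT replicate 2 and KO replicate 3 the nearest pair, and the 95% interval of its log2 difference ran from -0.31 to 0.08.

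Membrane and lipid supply to the growing autophagosome was read in 4 genes. The lipid transfer gene Atg2a was at 15.8 ± 1.97 CPM in WT and 14.3 ± 0.232 in KO (SD, n = 3 each). Atg9a, which encodes the scramblase of the seed vesicles, was at 40.6 ± 2.66 and 42.6 ± 2.18 CPM, with other genes' exons over 32.6% of its exonic bases. Wipi1 and Wipi2 encode readers of the PI3-kinase lipid; their log2 differences were 0.07 and -0.04. Groups overlapped for all 4.

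The conjugation genes held the member with the lowest level per kb. Atg7, the E1-like enzyme that activates Atg8 and Atg12, had 57, 57 and 62 counts in WT and 59, 75 and 60 counts in KO, which was 7.76 ± 0.115 and 7.82 ± 1.09 CPM (SD, n = 3 each). Atg5, which is joined to Atg12, was at 12.6 ± 1.25 CPM in WT and 14.3 ± 2.37 in KO, with KO replicate 1 the highest library at 16.4 CPM. Its log2 difference was 0.18, with a 95% interval from -0.13 to 0.49. The E2-like Atg3, the protease gene Atg4b, the ubiquitin-like Atg12 and the scaffold gene Atg16l1 had log2 differences between -0.09 and 0.05. None of the 6 conjugation genes had groups apart.

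The lysosomal genes held the member with the highest level per kb. Ctsd, which encodes the aspartic protease cathepsin D, was at 404, 405 and 440 CPM in WT and 470, 457 and 418 in KO. KO replicate 3 lay inside the WT range, and the log2 difference was 0.11 ± 0.08 (SE), with a 95% interval from -0.05 to 0.26. Gm49369, another gene on the same strand, shares 34.4% of the exonic bases of Ctsd, and how such reads were counted was not given in the sources used here. Lamp1, a main glycoprotein of the lysosomal membrane, was at 297, 302 and 267 CPM in WT and 286, 283 and 292 in KO. Its KO libraries spread less than its WT libraries and lay inside their range.

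Lamp2, whose loss in humans causes the vacuolar myopathy Danon disease, was at 120, 115 and 118 CPM in WT and 102, 122 and 124 in KO. KO replicate 1 was the lowest of the 6 and the other KO libraries the highest. The cysteine protease gene Ctsl, a gene raised in wasting muscle, was at 134, 124 and 120 CPM in WT and 129, 116 and 120 in KO. Ctsb, another cysteine protease gene, was at 129, 126 and 123 CPM in WT and 128, 133 and 125 in KO. Groups overlapped for all 5 lysosomal members. The 95% intervals of Lamp1, Lamp2, Ctsl and Ctsb all lay between -0.21 and 0.19 on the log2 scale.

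Tfeb encodes the transcription factor that turns on lysosomal and autophagy genes when it enters the nucleus. It was at 30.3, 27.9 and 28.3 CPM in WT and 33.7, 28.4 and 25.6 in KO. KO libraries held both the highest and the lowest value, and the log2 difference was 0.02 ± 0.11 (SE), with a 95% interval from -0.21 to 0.25. The RNA level does not show where the protein is.

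TFEB binds E-boxes with the core CACGTG, in its preferred setting TCACGTGA, the centre of the CLEAR element. Both motifs read the same on the 2 strands, and every TCACGTGA contains a CACGTG. RefSeq promoter windows (GRCm38.p6, 250 bases before to 50 after the gene start) were held for 29 of the 36 genes. Among these CACGTG occurred in 7, 24.1%, beside 7.24% of all 27025 promoter windows, and TCACGTGA in 2, 6.90%, beside 1.01%. The 27025 windows were not limited to tested genes, whereas all 36 members were tested, so these shares do not compare like genes. A share among tested genes is not given here, so no excess particular to the members can be read from these counts. The core of the estrogen response element, a palindrome with a 3-base spacer of any letters, occurred in 0 of the 29 and in 0.0666% of all windows. It is so rare, at 18 of 27025 windows, that 0 of 29 would be usual for any genes. This count therefore tells nothing about the members. The 7 genes with CACGTG were Atg14, Atg3, Atg5, Atg7, Lamp1, Ctsl and Ctsd, and their log2 differences ran from -0.26 to 0.18. Windows follow the RefSeq start, which can differ from the GENCODE start. The stretch of Atg7 begins at 114670952 on chromosome 6, inside a GENCODE gene that begins at 114643097. That of Atg14, on the minus strand of chromosome 14, ends at 47568447, inside a GENCODE gene that reaches 47570649. The stretch of Ctsl, on the minus strand of chromosome 13, ends at 64370768, inside a GENCODE gene that reaches 64370890. The Ctsd stretch with TCACGTGA, on the minus strand of chromosome 7, ends at 142387937, inside a GENCODE gene that reaches 142388038. These matches are letters in a window and not bound sites. The 2 stretches with TCACGTGA and 2 of the 4 CACGTG stretches of Lamp1 are shown because they hold the letters that TFEB is known to bind, with the motif in capitals:
Ctsd, chr7:142387908-142387937, minus strand: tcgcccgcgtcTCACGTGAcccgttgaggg
Atg3, chr16:45158746-45158775, plus strand: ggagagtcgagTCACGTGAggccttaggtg
Lamp1, chr8:13159088-13159117, plus strand: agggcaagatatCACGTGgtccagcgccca
Lamp1, chr8:13159121-13159150, plus strand: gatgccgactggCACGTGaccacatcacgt

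Ctsd, Atg3 and Lamp1, the genes of these stretches, had log2 differences of 0.11, -0.00 and -0.01, and none passed.

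Levels of the 36 genes, compared as CPM per kb of exonic length, spanned from 1.12 for Atg7 to 184 for Ctsd over the 6 libraries. Ctsd, Sqstm1, Lamp1, Gabarapl1 and Map1lc3a were the top 5, and each lay above the 95th percentile of the 13220 tested genes with a length. Sqstm1 at 109 ± 7.12 CPM per kb in WT, Lamp1 at 108 ± 7.07 and Gabarapl1 at 104 ± 13.4 (SD, n = 3 each) did not differ from each other beyond their spread. The step from Gabarapl1 down to Map1lc3a, at 57.1 ± 3.38, exceeded the spread. The next step, to Gabarap at 45.1 ± 1.58, did so too, but not with the longest transcript as length. Optn followed at 31.5 ± 1.41, then Nbr1 at 22.2 ± 0.639 and Ctsb at 20.8 ± 0.508. At the low end Pik3r4 stood at 1.25 ± 0.0682 and Atg7 at 1.11 ± 0.0166 CPM per kb in WT. The 2 kinases were far apart, with Ulk2 at 16.7 ± 0.258 and Ulk1 at 2.34 ± 0.468 CPM per kb. The order was nearly the same with the longest transcript as length (Spearman 0.968 across the 36 genes, a description), and the same 7 genes led in the same order.

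**Figure D3:**
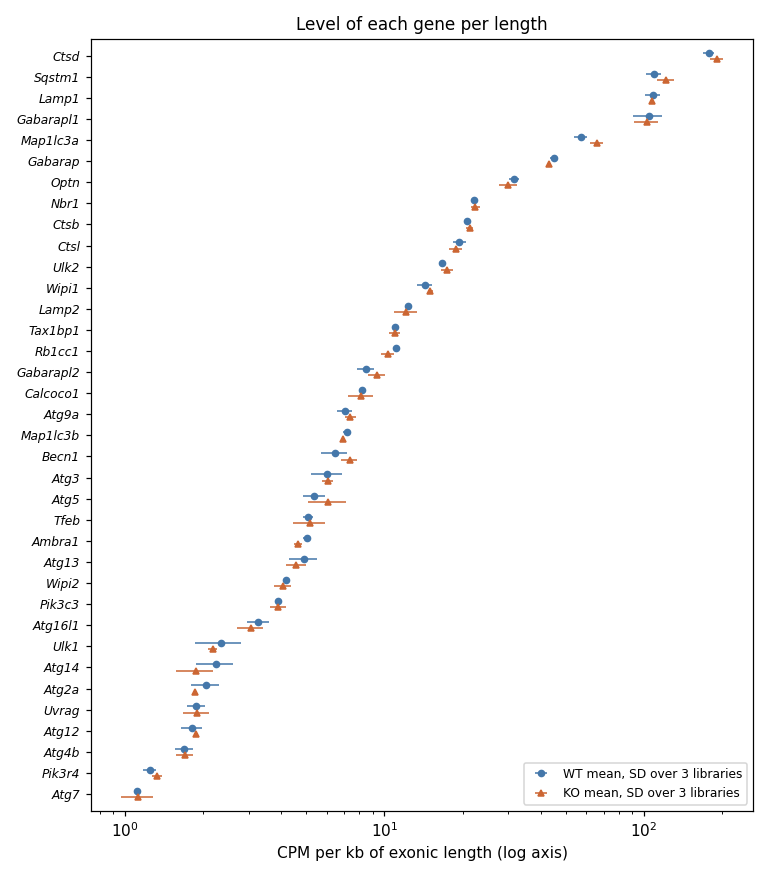
The horizontal log axis gives the level as CPM per kb of exonic length; points are means of 3 libraries and bars their SD, with WT as circles and KO as triangles. Levels fall from 184 for Ctsd to 1.12 for Atg7, while WT and KO of each gene lie side by side.

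No single library set the members apart. Of all counts, the members took 0.293%, 0.297% and 0.310% in WT and 0.313%, 0.306% and 0.310% in KO. KO replicates 1 and 2 were the highest library for 10 and 9 of the 36 genes, and the others for 3 to 7. Each library was the lowest for 5 to 7. The median log2 deviation of the members from their own means lay between -0.020 and 0.012 in every library. The most variable members within groups were Atg14, Ulk1 and Atg5, with coefficients of variation of 16.2%, 14.9% and 14.1%. The steadiest were Map1lc3b at 2.23%, Gabarap at 2.62% and Ctsb at 2.77%.

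The rest of the pathway was read from 7 lists of other genes, chosen with earlier results of these data known. The genes named from each list in the next paragraphs are up to 3 with its smallest unadjusted p, so they are picked extremes. Of 161 genes listed 160 were found and 155 were tested. Here too 0 passed over all genes, and 3 were higher and 4 lower at an unadjusted p under 0.05, 4.52% of those tested beside 4.26% of all genes. Their median log2 difference was 0.001. Groups were apart for 11 genes as higher and 12 as lower, 14.8% of those tested beside 10.4% of all genes. By list this share ran from 0% for fusion genes to 37.5% for the 8 other selective receptors. Log2 differences fell with exonic length over all genes (Spearman -0.186 across 13220 genes, which are not independent replicates). The members were longer than the tested genes, with a median of 6014 against 4184 bases. Among the members the Spearman was -0.245. Map1lc3a was the shortest member (1181 exonic bases) and Rb1cc1, apart as lower, the longest (14690), while Gabarap, also apart as lower, had 1844. The part of length in their values was not tested.

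The proton pump that acidifies the lysosome had 10 of 17 tested subunits higher and 7 lower, with 0 under an unadjusted p of 0.05. The 3 smallest unadjusted p, from 0.188, went with log2 differences of -0.11 for Atp6v1d, -0.13 for Atp6v0a1 and 0.11 for Atp6ap2. Of 43 other lysosomal enzymes 27 were higher and 16 lower, and their median log2 difference was 0.02. Among them Ctsz, the gene of cathepsin Z, was at 20.6, 19.3 and 25.6 CPM in WT and 25.0, 28.0 and 25.3 in KO, groups that overlapped at WT replicate 3. Ctsz had a log2 difference of 0.25 and an unadjusted p of 0.0443. Ids and Galns, which degrade glycosaminoglycans, had log2 differences of -0.38 and -0.37 with unadjusted p of 0.0528 and 0.0872.

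Among other lysosomal membrane and sorting genes 12 were higher and 9 lower of 21. The cholesterol transporter gene Npc1 was at 32.0, 29.5 and 29.4 CPM in WT and 27.4, 25.1 and 24.9 in KO. Its groups were apart, with a log2 difference of -0.23 and an unadjusted p of 0.0288. The cystine exporter gene Ctns (-0.36) and the tetraspanin gene Cd63 (0.41) had groups apart too, with unadjusted p of 0.0673 and 0.117.

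Other autophagosome formation genes had 9 higher and 13 lower of 22. Atg2b, the paralogue of Atg2a, was at 45.0, 46.2 and 47.2 CPM in WT and 37.3, 38.5 and 38.1 in KO. The gap between its groups, over 6 CPM, was wider than the spread within either. Because Atg2b is named for its small unadjusted p, this gap adds no separate support. Its log2 difference was -0.28, with a 95% interval from -0.46 to -0.10 (unadjusted p = 0.00394, adjusted p = 0.989). Nrbf2, a subunit of the class III PI3-kinase complex, and Atg4d, a protease of Atg8 proteins, had log2 differences of -0.30 and 0.18 with overlapping groups.

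Other selective receptors had 3 higher and 5 lower of 8, and 2 of the lower were at an unadjusted p under 0.05, beside 2.27% of all genes; a share of so short a list rests on those 2 genes. Fam134b, a receptor for turnover of endoplasmic reticulum, was at 671, 650 and 727 CPM in WT and 612, 627 and 590 in KO. At 156 CPM per kb over the 6 libraries it stood above Sqstm1, at 115. Each KO value was below each WT value, with a log2 difference of -0.16 and an unadjusted p of 0.0401. Wdr81, a partner of p62 in aggregate clearance, was at 16.2, 15.6 and 13.9 CPM in WT and 11.7, 9.79 and 12.6 in KO, a log2 difference of -0.42 with an unadjusted p of 0.00722. Tex264, another receptor for endoplasmic reticulum, had a log2 difference of 0.24 and overlapping groups.

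Genes of autophagosome and lysosome fusion had 6 higher and 13 lower of 19, and no group was apart. Their smallest unadjusted p was 0.212 for Plekhm1, an adaptor of late endosomes, with Vps33a and Rab7 next. Genes of mTORC1 and TFEB control had 11 higher and 14 lower of 25. Lamtor1, the subunit that anchors the Ragulator complex to the lysosome, was at 28.5, 29.9 and 26.4 CPM in WT and 35.5, 32.9 and 39.2 in KO. All KO libraries exceeded all WT libraries, with a log2 difference of 0.34, a 95% interval from 0.13 to 0.55 (unadjusted p = 0.00313, adjusted p = 0.989). Lamtor4, another Ragulator subunit, was at 16.3, 16.4 and 13.9 CPM in WT and 19.3, 17.3 and 21.5 in KO, a log2 difference of 0.32 with an unadjusted p of 0.0214. Fnip2, a partner of folliculin, had a log2 difference of -0.27 and overlapping groups.

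**Figure D4:**
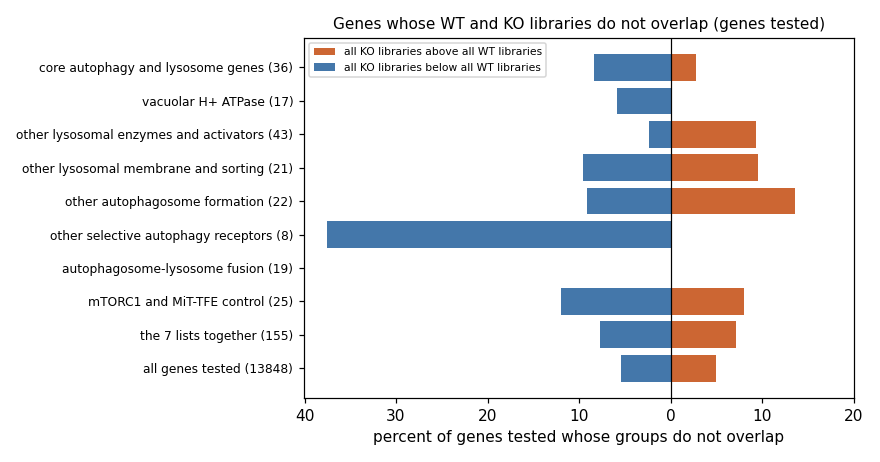
Bars give the percent of tested genes whose 3 WT and 3 KO libraries do not overlap, to the right where KO is higher and to the left where it is lower, with the number of genes tested in brackets. The core genes, at 1 higher and 3 lower of 36, lie near all genes tested (4.96% and 5.45%), and the longest bar rests on 3 of 8 genes.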

How the data were processed

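The authors' deposited table held whole-number counts per Ensembl gene for 6 libraries, with a log2 fold change, a log2 mean abundance and the p-value before and after adjustment from the authors' own test. Per the labels' protocols RNA was taken with Trizol and made into libraries by the TruSeq RNA kit of Illumina; that kit keeps no strand. Per the submitters' processing notes the tools were edgeR and TopHat 1.3.3 and the build was mm10. How reads were counted, on which gene models, and what became of multi-mapped reads was not given in the sources used here.

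Of 37506 rows, 29 repeated an identifier with the same counts and were merged. Coordinates and exonic lengths are from GENCODE M21 (GRCm38), symbols from the table or, where it lacked one, from that release. Genes were filtered with filterByExpr (13848 kept), given TMM factors (0.968 to 1.037) and compared by the two-sided quasi-likelihood test, with robust settings, of edgeR 4.0.16 in R 4.3.3, on genotype alone, with Benjamini-Hochberg adjustment over all genes tested and a threshold of 0.05. The standard error is the log2 difference over the square root of F. CPM used TMM-scaled library sizes. The script was tested on simulated data. Replicate libraries differed by more than sampling noise (chi-square per gene of 3.46 to 9.57) and were counted separately.

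The members and lists were chosen with earlier results of these data known. All members were named; of each other list, up to 3 genes with the smallest unadjusted p. Values in every library are given for members with an unadjusted p under 0.05, members whose groups did not overlap, and 12 set ones. Alternatives were RLE and no scaling, 2 other filters, DESeq2 1.42.0, voom of limma 3.58.1, a replicate block, leaving out each library, a stricter threshold, a length trend and another gene length.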

Additional observations from a re-analysis of the deposited data

How the results depend on the processing

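With each alternative 0 of the 36 members and 0 of the other pathway genes passed over all genes; the lowest adjusted p of a member was 0.626, for Map1lc3a without KO replicate 2. At an unadjusted p under 0.05 there were 0 to 3 members over the 13 refits. Map1lc3a was under 0.05 in 8 of them, and over all 13 its p ran from 0.0122 to 0.0889. Sqstm1 came under that level with no scaling, with no filter beyond 1 read and without KO replicate 3. Becn1 did so with no filter beyond 1 read and without WT replicate 2 or KO replicate 3. Over all genes 19 were called with no filter beyond 1 read, Esr1 among them, 1 by limma voom, 3 by DESeq2 and 0 to 3 with 1 library left out (3 without WT replicate 1), beside 0 in the test reported; the cause was not tested. Same-numbered WT and KO libraries had correlations of -0.015, 0.159 and 0.038 of their deviations, so the numbers were not taken as pairs, and not every library correlated best with its own number; the replicate block called 0 genes. The members' median log2 difference was -0.006 to 0.017 over the refits and 0.028 less the trend on gene length.

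Signs turned for 16 members, all with a log2 difference of 0.102 or less in size. With RLE scaling Tax1bp1 was at 0.0026 and Atg3 at 0.0028. With no scaling Calcoco1 was at 0.0092, Tax1bp1 at 0.015, Atg3 at 0.013 and Lamp1 at 0.0091. With no filter beyond 1 read Calcoco1 was at 0.0027, Tax1bp1 at 0.0093, Atg3 at 0.0094 and Lamp1 at 0.00037. Atg3 was at 0.0045 with the replicate block, 0.0055 in limma voom and 0.0032 in DESeq2, Pik3c3 at -0.00019 in limma voom and Tax1bp1 at 0.0025 in DESeq2. Leaving out each library gave ranges of -0.017 to 0.113 (Atg12), -0.162 to 0.0070 (Atg13), -0.063 to 0.121 (Atg3), -0.062 to 0.061 (Atg4b), -0.106 to 0.087 (Atg7), -0.088 to 0.073 (Calcoco1), -0.115 to 0.076 (Gabarapl1), -0.062 to 0.024 (Lamp1), -0.071 to 0.063 (Lamp2), -0.021 to 0.039 (Nbr1), -0.027 to 0.061 (Pik3c3), -0.040 to 0.026 (Tax1bp1), -0.093 to 0.110 (Tfeb), -0.255 to 0.012 (Ulk1), -0.086 to 0.076 (Uvrag) and -0.098 to 0.0053 (Wipi2).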

Other observations

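The Ragulator complex, which holds mTORC1 regulators on the lysosome, was read in all 5 of its subunits after Lamtor1 and Lamtor4 had been seen. Lamtor5 was at 13.0, 15.3 and 11.7 CPM in WT and 14.8, 15.0 and 17.2 CPM in KO, a log2 difference of 0.23 with an unadjusted p of 0.102. Lamtor2 had a log2 difference of 0.17 and Lamtor3 of -0.12, with unadjusted p of 0.291 and 0.304 and overlapping groups. Lamtor1, Lamtor2, Lamtor4 and Lamtor5 thus had positive differences and Lamtor3 a negative one, and none passed over all genes. Lamtor2, Lamtor4 and Lamtor5 are short, with 1218, 1302 and 884 exonic bases, and Lamtor1 and Lamtor3 have 3215 and 4151; over all genes shorter ones tended to higher log2 differences (Spearman -0.186), and the part of length in these values was not tested. Rragd, which encodes a Rag GTPase subunit of the same assembly, was the most abundant Rag gene, at 29.4 CPM per kb over the 6 libraries beside 5.49 for Rragc, and its 95% interval ran from -0.11 to 0.20.

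Mitf and Tfe3 encode relatives of TFEB that bind the same element. Mitf was at 31.6, 32.1 and 34.2 CPM in WT and 30.8, 31.5 and 28.8 CPM in KO, a log2 difference of -0.10 with groups apart and an unadjusted p of 0.274. Tfe3 was lower in level, at 0.553 CPM per kb beside 5.09 for Mitf and 5.12 for Tfeb, and Tfec had 0 to 0.137 CPM.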
